A study of Arabidopsis thaliana with 15 samples.

Results

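In roots of Arabidopsis thaliana seedlings carried on a C-9 aircraft, 127 of 16550 measured genes had transcript levels that were higher after the first parabola and stayed within a narrow band of that level to the tenth. A parabola is a flight manoeuvre in which a phase of reduced gravity lies between phases of raised gravity. The genes were chosen from group means of log2 expression, where a step of 1 is a doubling of the signal. A gene was taken if its mean after parabola 1 was at least 0.5 above its mean in level flight, which is a 1.41-fold difference. In addition its means after parabolas 3 and 10 each had to lie within 0.3 (1.23-fold) of its mean after parabola 1, and that mean had to be at least 4. Genes rising by 0.2 or more at each of the 3 steps were to be left out, and this clause removed 0 genes. The same 3 comparisons therefore chose the genes, so all values of the chosen genes are given as a description and none of them is tested.

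All 15 arrays hold RNA of whole roots of 10-day-old seedlings of the Wassilewskija background grown in constant light. Every seedling, those fixed in level flight included, carried pCaMV35S:14-3-3κ:GFP, in which the broadly active viral 35S promoter drives the regulatory protein 14-3-3κ fused to a green fluorescent protein. The groups were roots fixed in level flight before the first parabola (n = 4), and roots fixed on completion of parabola 1 (n = 4), of parabola 3 (n = 4) or of parabola 10 (n = 3). Fixation with RNAlater took place on board inside closed tubes, and the root pools of a group all came from 1 tube. Tube, time on board and number of parabolas thus cannot be told apart, and the spread between arrays is that among pools from the same tube. A line without the transgene was not analysed here.

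A plant root reads gravity through starch-filled plastids that settle in cells of its cap, and calcium signals, auxin transport and local loosening of the cell wall belong to the response that follows. The level of a transcript is set by how fast it is made and how fast it decays, and neither rate was measured here. In RNA from whole roots, more cells of a type and more RNA per cell cannot be told apart.

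Of the genes with a mean of at least 4 after parabola 1, 369 met the first step, which is 2.23% of all genes (2.71% without the limit on the mean). Of these 369 genes, 127 (34.4%) also met both limits on the later levels. The 242 others did not meet both limits, and no later group was tested against parabola 1. Of them, 100 were more than 0.3 higher after parabola 10 than after parabola 1, and 67 were more than 0.3 lower. A further 75 were within 0.3 after parabola 10 but outside it after parabola 3. Of those 75 genes, 66 were lower and 9 were higher after parabola 3. As the first step picks genes on a high parabola 1 mean, nothing is read from this split. A further 37 genes met the step and both limits but had a mean under 4 after parabola 1. With the rule mirrored, 239 of 550 genes (43.5%) that were at least 0.5 lower after parabola 1 and had a level-flight mean of at least 4 were held low.

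**Figure D1:**
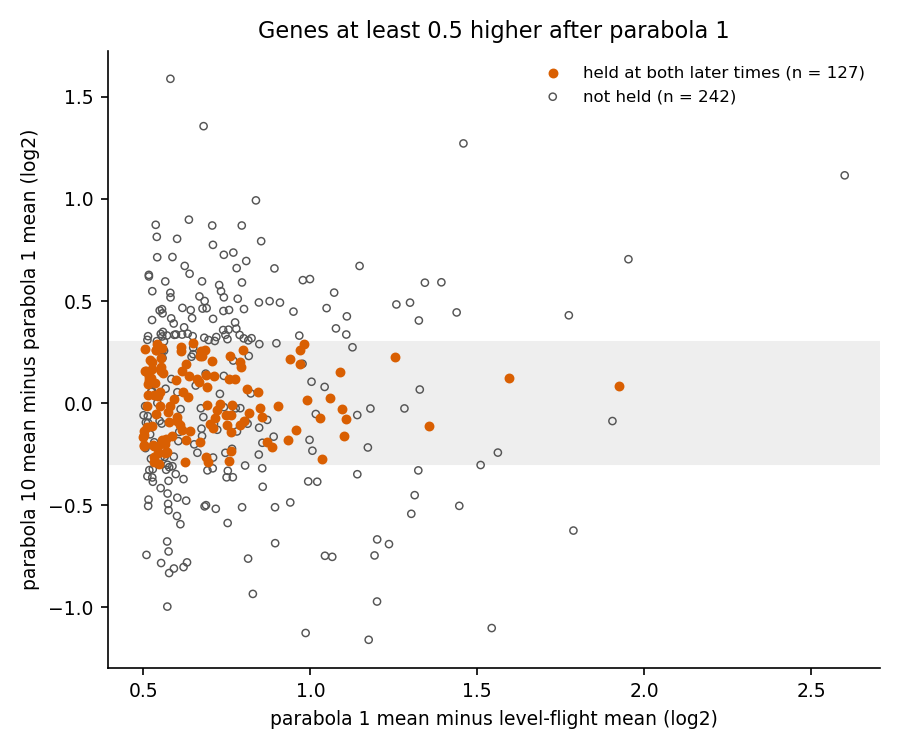
Parabola 10 mean minus parabola 1 mean (vertical, log2) against parabola 1 mean minus level-flight mean (horizontal, log2) for the 369 genes that met the first step, 1 point per gene. Filled points are the 127 held genes, open points the 242 genes that were not held, and the grey band marks ±0.3; open points inside the band fall outside the limit after parabola 3.

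The limits are sharp cuts through a continuous range. At the first step, AT5G17280 (0.500), MSRB3 (0.501) and AT4G25225 (0.501) lay just inside, and AT5G59960 (0.4997), AT5G63480 (0.499) and AT1G67900 (0.499) just outside. For the distance between parabola 3 and parabola 1, AT1G26250 (0.2997), AT1G49200 (0.293) and SP1L2 (0.291) lay just inside, while AT3G29034 (0.303), AT5G51780 (0.304) and AT5G40860 (0.306) were just outside. For parabola 10, ndhK (0.299), SCPL45 (0.294) and AT5G03550 (0.291) were inside, and AT5G16010 (0.302), AT1G72860 (0.303) and AT1G72130 (0.307) outside. On the level after parabola 1, AT3G10080 (4.02), AT5G44010 (4.04) and AT4G18300 (4.08) were inside, with AT3G28330 (3.92), AT5G46060 (3.86) and AT2G16760 (3.84) outside.

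Most of the 127 genes made a small step. The difference between parabola 1 and level flight lay between 0.50 and 1.93 with a median of 0.63, where all 16550 genes had a median of 0.01. Of the members, 11 were at least 2-fold higher, 67 were 1.5- to 2-fold higher and 49 were under 1.5-fold higher. After parabola 3 the median difference from level flight was 0.59 (range 0.26 to 2.05, all genes 0.03), and after parabola 10 it was 0.69 (range 0.24 to 2.01, all genes 0.04). Within the band that the rule allows, 88 genes were lower after parabola 3 than after parabola 1 and 39 higher. The median of that difference was −0.09, and −0.03 over the 7661 genes with a mean of at least 4 after parabola 1. After parabola 10, 62 genes were above and 65 below their parabola 1 mean. The rule chose genes on a high parabola 1 mean, so nothing is read from these splits. The highest of the 4 group means was that of parabola 1 in 51 genes, parabola 3 in 20 and parabola 10 in 56. In 12 genes both later means lay within 0.1 of the first.

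**Figure D2:**
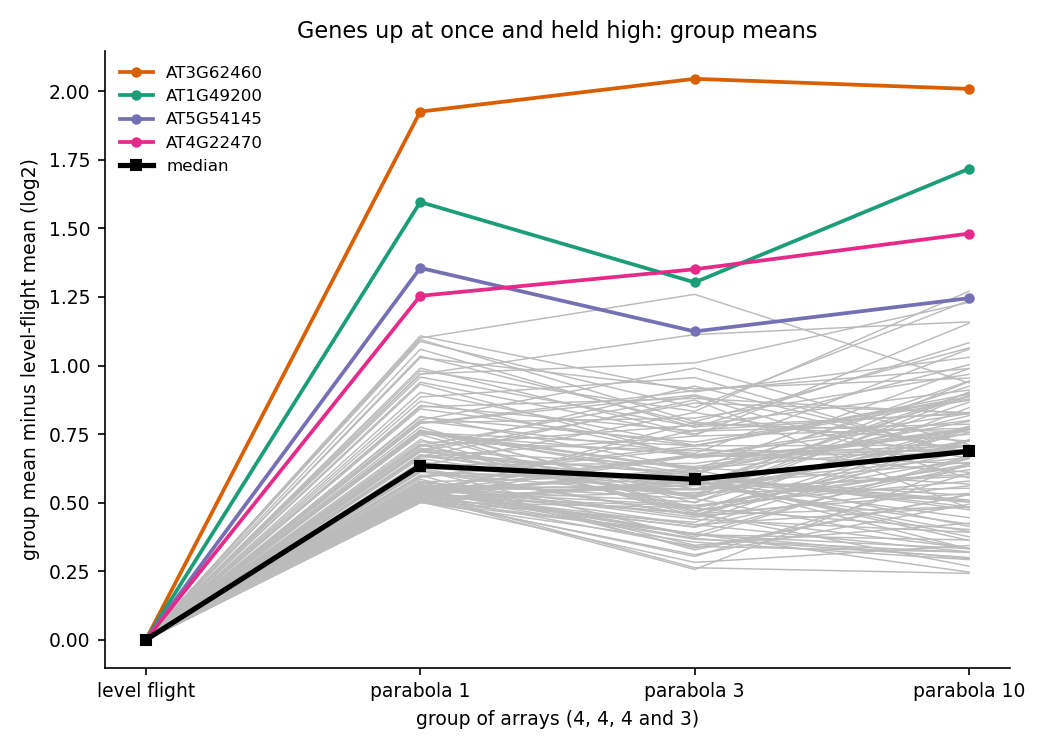
Group mean minus level-flight mean (log2) of each of the 127 genes in level flight and after parabolas 1, 3 and 10, with 1 grey line per gene, coloured lines for the 4 genes with the largest first step and a black line for the median gene. The median line runs 0.63, 0.59 and 0.69 above level flight after parabolas 1, 3 and 10, and AT3G62460 stands apart at 1.93, 2.05 and 2.01.

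A limma fit to all arrays called 575 of 16550 genes (3.47%) higher after parabola 1 at an adjusted p under 0.05 by the Benjamini-Hochberg method. Of the 127 chosen genes, 116 were among them. After parabola 3 the fit called 99 of the 127 genes against 4.48% of all genes, and after parabola 10 it called 102 against 7.53%. Every parabola 1 array lay above every level-flight array in 111 of the 127 genes (all genes 6.72%). The same held after parabola 3 in 91 (all genes 7.4%) and after parabola 10 in 108 (all genes 13.6%). In 81 of the 127 genes all 11 arrays fixed after a parabola lay above all level-flight arrays (all genes 2.53%). Since the rule used these contrasts, nothing is read from these shares. The number of genes called higher moved by over 1.5 times with single arrays, to 383 after parabola 1 without level replicate 1 and to 822 of 1247 after parabola 10 without parabola 10 replicate 1.

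Only 23 of the 127 genes have a symbol in the annotation used, and 104 are known by their locus. For 52 genes a role or protein family can be given from general knowledge, and 75 genes are left without one. The 52 fall into secreted proteins (8 genes), cell wall proteins (6), cytoskeletal proteins (3), signalling proteins (5), transcription and chromatin proteins (8), proteins of protein turnover (9), transporters (3), plastid proteins (4) and other enzymes (6).

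The largest step belonged to AT3G62460, a gene for which no role is given here. Its log2 values were 2.61, 2.69, 2.82 and 3.46 in level flight, then 4.63, 5.01, 4.50 and 5.14 after parabola 1, 5.26, 4.71, 4.87 and 4.92 after parabola 3, and 5.10, 4.87 and 4.74 after parabola 10. The lowest of its 11 arrays after a parabola lay 1.03 above the highest level-flight array. Its mean was 4.82 ± 0.30 after parabola 1 against 2.89 ± 0.39 in level flight (SD, n = 4 each), a 3.80-fold difference. AT1G49200, from the family of RING ubiquitin ligases that mark proteins for breakdown, was 3.02-fold higher after parabola 1. It read 2.82, 3.44, 3.50 and 3.19 in level flight, then 4.61, 3.90, 5.46 and 5.37 after parabola 1, 4.78, 4.83, 4.55 and 4.01 after parabola 3, and 5.11, 4.98 and 4.78 after parabola 10. Its parabola 1 arrays were the most widely spread of the 127 genes in that group, with an SD of 0.73, and all of them still lay above the level-flight arrays.

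Secreted proteins held several of the larger steps. AT4G22470, AT4G12490 and AT4G22610 encode small proteins like those that carry lipids in the cell wall space. In AT4G22470 the log2 values were 3.73, 4.51, 4.07 and 3.96 in level flight, then 5.50, 5.65, 5.32 and 4.82 after parabola 1, 6.21, 4.95, 4.91 and 5.62 after parabola 3, and 6.29, 5.57 and 4.80 after parabola 10. AT4G12490 was dim in level flight and had values of 3.32, 3.19, 3.72 and 2.81 in level flight, then 4.71, 4.22, 4.64 and 3.88 after parabola 1, 4.93, 4.18, 4.18 and 4.79 after parabola 3, and 4.20, 4.51 and 3.89 after parabola 10. AT4G22610 was bright, with 8.28, 8.19, 8.36 and 8.0 in level flight, then 9.13, 9.10, 9.59 and 9.24 after parabola 1, 9.17, 9.13, 8.85 and 8.77 after parabola 3, and 9.36, 9.23 and 9.28 after parabola 10. These 3 genes were 2.39-fold, 2.14-fold and 2.08-fold higher after parabola 1 than in level flight, and in each of them every array after a parabola lay above every level-flight array. The gap between the nearest such arrays was 0.16 in AT4G12490.

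LCR69, which encodes a plant defensin, a small cysteine-rich protein of innate defence, was the brightest gene of all 127 with a mean of 10.56 ± 0.11 after parabola 1 against 9.87 ± 0.31 in level flight (SD, n = 4 each). Its differences from level flight after parabolas 1, 3 and 10 were 0.69, 0.63 and 0.77. AT1G22900, related to dirigent proteins that steer the coupling of lignans and lignin precursors, differed by 0.97, 1.01 and 1.23. IDL4, a signalling peptide like IDA, which controls organ shedding, differed by 0.67, 0.57 and 0.90. In IDL4 all parabola 1 and parabola 10 arrays lay above the level-flight arrays, but 2 of 4 parabola 3 arrays (4.76 and 4.78) lay below the highest level-flight array (5.12). SCPL45, a serine carboxypeptidase-like gene, differed by 0.65, 0.53 and 0.94, and its parabola 1 and level-flight arrays overlapped. The papain-type cysteine protease gene AT3G19390 differed by 0.52, 0.41 and 0.73.

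Among cell wall genes the largest step was in AT1G26250, which encodes an extensin-like structural protein of the wall. Its log2 values were 7.02, 7.10, 7.20 and 7.09 in level flight, then 7.82, 7.94, 8.83 and 8.21 after parabola 1, 8.19, 7.95, 7.64 and 7.82 after parabola 3, and 8.43, 8.06 and 8.02 after parabola 10. The level-flight arrays lay close together, with an SD of 0.07, and parabola 1 replicate 3 was the highest of all. AT4G24780, of the pectate lyase family that cuts pectin, had 6.01, 6.23, 6.03 and 5.86 in level flight, then 7.03, 6.98, 6.74 and 6.55 after parabola 1, 6.98, 7.04, 6.79 and 6.56 after parabola 3, and 6.56, 7.26 and 7.19 after parabola 10. It was 1.73-fold higher after parabola 1, and its later arrays were as far above level flight. A second pectate lyase family gene, AT3G27400, differed by 0.71, 0.78 and 0.91 after parabolas 1, 3 and 10. EXPA4 encodes an expansin, a protein that lets cell walls loosen, and differed by 0.69, 0.92 and 0.68. AT5G56590, of a glycosyl hydrolase family of beta-glucanases, differed by 0.54, 0.76 and 0.83, with overlap between parabola 1 and level flight. AT5G04960, of the pectin methylesterase family, differed by 0.50, 0.28 and 0.34.

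The 3 cytoskeletal genes differed in how well their arrays separated. AT1G73860 encodes a kinesin, a motor that walks on microtubules, and read 4.92, 5.08, 5.53 and 5.18 in level flight, then 6.13, 6.11, 6.34 and 5.86 after parabola 1, 5.94, 5.85, 5.75 and 5.83 after parabola 3, and 6.35, 5.69 and 5.73 after parabola 10. TRM28, named for a motif that recruits TON1 to microtubule arrays, had 5.32, 5.12, 4.90 and 5.29 in level flight, then 6.02, 5.45, 6.23 and 6.18 after parabola 1, 5.39, 5.61, 5.91 and 6.22 after parabola 3, and 6.13, 5.76 and 5.87 after parabola 10. In both genes every array after a parabola was above every level-flight array, by at least 0.16 in AT1G73860 and 0.07 in TRM28. SP1L2, a relative of the microtubule protein SPIRAL1, had group means of 4.29 ± 0.48 after parabola 1 against 3.53 ± 0.48 in level flight (SD, n = 4 each). The SP1L2 arrays overlapped, since parabola 1 replicate 4 stood at 3.64 and 2 level-flight arrays stood at 3.89 and 3.98.

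Signalling genes made middling steps. The IQD genes iqd15 and IQD20 encode proteins with an IQ67 domain that binds calmodulin, a calcium sensor. The values of iqd15 were 6.53, 6.50, 6.80 and 6.61 in level flight, then 7.29, 7.26, 7.02 and 7.38 after parabola 1, 7.55, 6.95, 7.16 and 7.11 after parabola 3, and 7.0, 7.25 and 6.91 after parabola 10. IQD20 read 5.28, 5.35, 5.68 and 5.65 in level flight, then 6.27, 5.94, 6.17 and 5.97 after parabola 1, 5.99, 6.17, 6.18 and 6.45 after parabola 3, and 6.06, 6.01 and 6.53 after parabola 10. In both the arrays after parabolas lay above all level-flight arrays. PID2, a kinase gene closely related to PINOID, which acts on auxin transport, differed from level flight by 0.60, 0.59 and 0.51 after parabolas 1, 3 and 10. ATMPK13, a mitogen-activated protein kinase gene, differed by 0.59, 0.70 and 0.61 with overlapping arrays, as did AT1G57630, which encodes a TIR-domain protein, by 0.76, 0.52 and 0.76. The level-flight arrays of AT1G57630 spread from 3.30 to 4.51, the widest SD in that group among the 127 genes (0.51).

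Of the transcription and chromatin genes, LSH9, of the plant-specific ALOG family, stood highest above level flight. Its log2 values were 6.45, 6.63, 6.56 and 6.57 in level flight, then 7.46, 7.38, 7.73 and 7.76 after parabola 1, 7.64, 7.15, 7.51 and 7.58 after parabola 3, and 7.57, 7.60 and 7.36 after parabola 10. HAT2, a homeodomain-leucine zipper gene known to be induced by auxin, was bright and made a small step. It read 9.0, 8.81, 8.71 and 8.93 in level flight, then 9.27, 9.48, 9.26 and 9.45 after parabola 1, 9.45, 9.25, 9.26 and 9.41 after parabola 3, and 9.64, 9.54 and 9.39 after parabola 10. In both genes all arrays after parabolas were above all level-flight arrays, by at least 0.52 in LSH9 and 0.25 in HAT2. SHL1, whose product has a PHD finger and a BAH domain and binds chromatin, differed by 0.66, 0.52 and 0.78 after parabolas 1, 3 and 10. SMZ, an AP2-type repressor of flowering, differed by 0.51, 0.57 and 0.67. AT4G16750, of the AP2/ERF family, differed by 0.78, 0.50 and 0.89, and a parabola 3 array (5.04) lay under its highest level-flight array (5.11). The basic helix-loop-helix genes AT5G51790, AT4G25400 and AT5G09460 were 0.69, 0.56 and 0.54 higher after parabola 1 than in level flight.

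There were 9 genes of protein turnover. Beside AT1G49200 they were the RING ubiquitin ligase genes AT2G40640, AT5G24870 and AT1G49850, the F-box genes AT1G53790, AT2G26030, AT3G07550 and AT2G42720, and SETH6 of the BTB/NPH3 family. RING, F-box and BTB proteins choose or tag proteins for the proteasome. AT1G53790 had 4.54, 4.59, 4.91 and 4.66 in level flight, then 5.22, 5.45, 5.68 and 5.50 after parabola 1, 5.54, 5.57, 5.31 and 5.86 after parabola 3, and 5.50, 5.55 and 5.02 after parabola 10. The remaining 7, SETH6 among them, were 0.51 to 0.68 higher after parabola 1. SETH6 differed by 0.55, 0.56 and 0.73 after parabolas 1, 3 and 10. In AT2G26030 the differences were 0.59, 0.34 and 0.43, and in AT5G24870 they were 0.54, 0.37 and 0.30, so both had lower means at the later times than after parabola 1.

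All 3 transporter genes had every array after a parabola above every level-flight array (all genes 2.53%). The rule used these contrasts, so nothing is read from that count. SWEET16 encodes a sugar transporter of the vacuole membrane, and its values were 7.03, 7.01, 7.29 and 7.23 in level flight, then 7.71, 7.66, 8.09 and 7.96 after parabola 1, 7.69, 7.49, 7.73 and 7.50 after parabola 3, and 8.17, 7.99 and 7.80 after parabola 10. AT4G27870, of the vacuolar iron transporter family, read 7.55, 7.49, 7.63 and 7.70 in level flight, then 8.45, 8.07, 8.69 and 8.20 after parabola 1, 8.08, 8.25, 8.25 and 8.27 after parabola 3, and 8.60, 8.60 and 8.54 after parabola 10. ZIP6, of a family of zinc and iron transporters, was dim in level flight and differed by 0.67, 0.61 and 0.92 after parabolas 1, 3 and 10. In all 3 the mean was highest after parabola 10.

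Of the plastid genes, PSAN encodes a nuclear-encoded subunit of photosystem I. Its log2 values were 4.68, 4.63, 4.71 and 4.84 in level flight, then 5.38, 5.27, 5.70 and 5.75 after parabola 1, 5.30, 4.98, 5.64 and 5.81 after parabola 3, and 5.80, 5.44 and 5.53 after parabola 10. CHLM, an enzyme gene of chlorophyll synthesis, differed by 0.52, 0.56 and 0.65 after parabolas 1, 3 and 10. ndhK and ndhJ, read from the plastid genome itself, belong to the NADH dehydrogenase-like complex of chloroplasts, and ndhK had 7.87, 7.94, 8.37 and 7.95 in level flight, then 8.43, 8.48, 8.84 and 8.55 after parabola 1, 8.43, 8.44, 8.33 and 8.46 after parabola 3, and 8.43, 8.02 and 8.38 after parabola 10. Level-flight replicate 3 stood at 8.37 in ndhK, near the parabola 1 arrays, and in ndhJ the same array was the highest of its group at 9.66. The differences of ndhK were 0.55, 0.39 and 0.25 and those of ndhJ 0.53, 0.26 and 0.24, so both lay near the lower hold limit after parabola 10, and neither was called after parabola 3 or 10. Of the 13 shoot photosynthesis markers listed, 2 were measured. LHB1B2 averaged 3.67 ± 0.39 after parabola 1 against 3.90 ± 0.18 in level flight, and RCA averaged 5.54 ± 0.05 after parabola 1 against 5.44 ± 0.11 in level flight (SD, n = 4 each). After parabolas 3 and 10 LHB1B2 averaged 3.54 ± 0.20 and 3.54 ± 0.11, and RCA 5.61 ± 0.23 and 5.77 ± 0.46 (SD, n = 4 and 3). Whether shoot tissue had a part in the plastid genes was not tested beyond these values.

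The other enzyme genes were led by AT2G18570, a UDP-glycosyltransferase gene, with 3.43, 3.56, 3.70 and 3.11 in level flight, then 4.12, 4.12, 4.69 and 4.47 after parabola 1, 4.53, 4.19, 4.20 and 3.71 after parabola 3, and 4.57, 4.10 and 4.34 after parabola 10. HL, a HAL2-like phosphatase gene, differed from level flight by 0.76, 0.59 and 0.53 after parabolas 1, 3 and 10. MSRB3, an enzyme that repairs oxidised methionine, was bright and tight. It read 7.53, 7.57, 7.50 and 7.45 in level flight, then 8.12, 7.95, 7.89 and 8.09 after parabola 1, 7.95, 7.79, 7.81 and 7.93 after parabola 3, and 7.89, 7.78 and 7.74 after parabola 10. AT5G36160, of the aminotransferase family, differed by 0.55, 0.50 and 0.77, the 2-oxoglutarate-dependent dioxygenase gene AT4G25310 by 0.67, 0.74 and 0.77, and the GMC oxidoreductase gene AT1G14190 by 0.51, 0.43 and 0.77. In AT4G25310 and AT1G14190 the parabola 1 arrays overlapped those of level flight.

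The genes without a given role include 4 more of the 10 largest steps. AT5G54145 was bright and 2.56-fold higher after parabola 1, with 7.58, 7.95, 7.85 and 7.48 in level flight, then 8.91, 8.91, 9.25 and 9.21 after parabola 1, 8.73, 8.92, 9.09 and 8.63 after parabola 3, and 8.98, 9.05 and 8.84 after parabola 10. AT2G28690 read 4.05, 4.60, 4.69 and 4.28 in level flight, then 5.62, 5.36, 5.64 and 5.42 after parabola 1, 5.46, 5.22, 5.34 and 5.21 after parabola 3, and 5.67, 5.31 and 5.31 after parabola 10. AT5G02580 had 5.66, 5.41, 5.59 and 5.57 in level flight, then 6.67, 6.47, 6.66 and 6.79 after parabola 1, 6.49, 6.21, 6.46 and 6.45 after parabola 3, and 6.96, 6.98 and 6.45 after parabola 10. The groups of these 3 genes were far apart, with the lowest array after a parabola at least 0.52 above the highest level-flight array. In AT2G34340 the values were 3.68, 3.62, 3.53 and 3.45 in level flight, then 4.86, 4.07, 5.20 and 4.29 after parabola 1, 4.33, 4.64, 4.30 and 4.16 after parabola 3, and 4.39, 4.28 and 4.31 after parabola 10, so its parabola 1 arrays spread over more than a doubling while the later arrays stayed together.

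**Figure D3:**
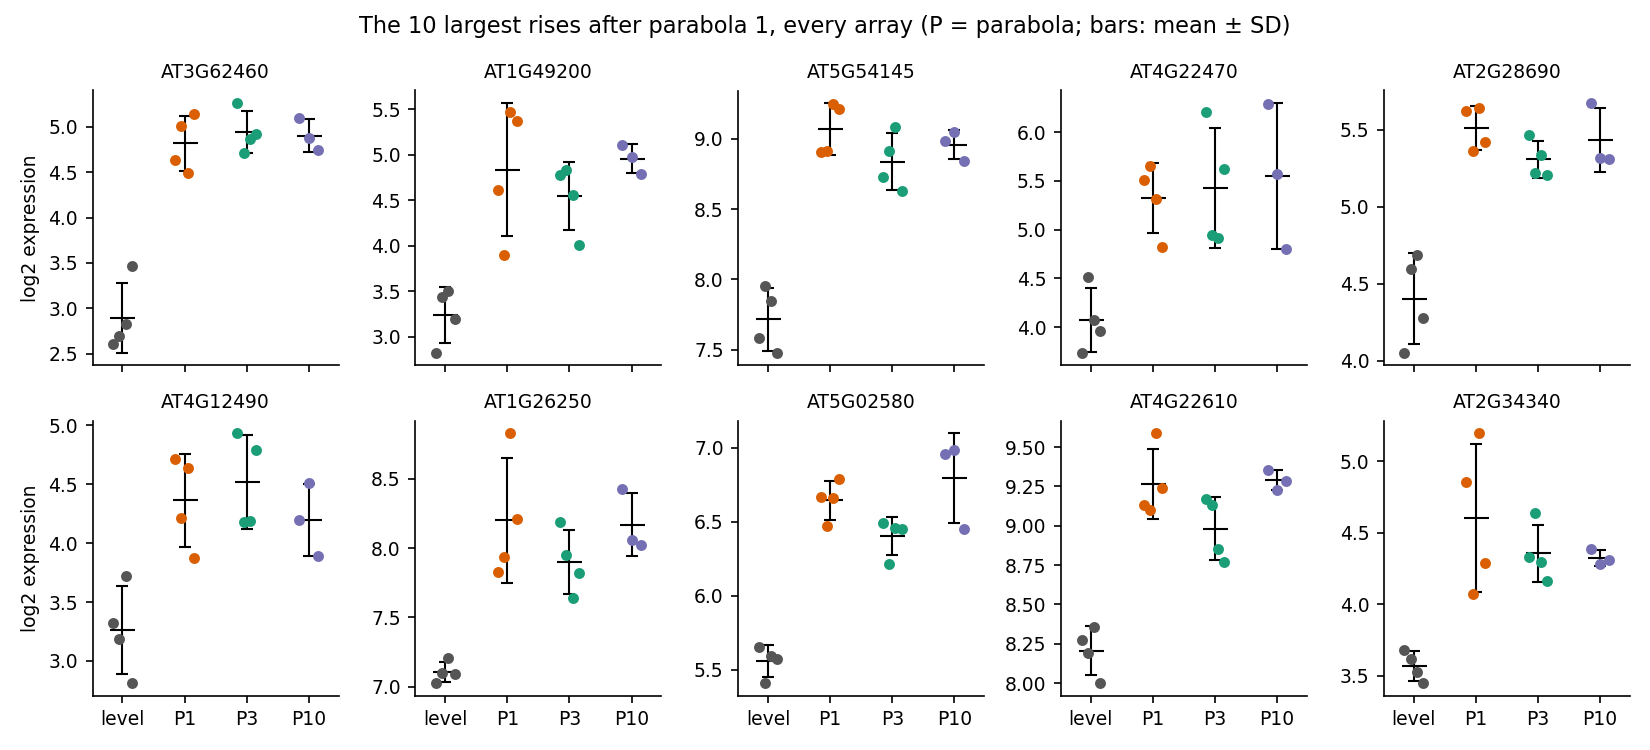
Log2 expression in every array for the 10 genes with the largest first step, in level flight and after parabolas 1, 3 and 10 (P1, P3, P10), with bars at mean ± SD. In all 10 genes every array after a parabola lies above the 4 level-flight arrays (all genes 2.53%), and the rule used these contrasts. The spread within a group differs from gene to gene, from an SD of 0.06 (AT2G34340 after parabola 10) to 0.75 (AT4G22470 after parabola 10).

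Next in size were AT1G21050 (0.99), AT4G27450 (0.98), AT5G16120 (0.97), AT3G10080 (0.96), AT3G27027 (0.94) and AT3G46616 (0.88), given as parabola 1 minus level flight. AT4G27450 and AT5G16120 were higher still after parabola 10, at 1.27 and 1.16 above level flight. Another 16 genes without a role were 0.71 to 0.87 higher after parabola 1. They are AT3G47510, AT2G23060, AT4G14620, AT2G29995, AT3G54880, AT1G73210, AT1G63420, AT4G03150, AT3G58270, AT4G28030, AT1G29290, AT4G18300, AT5G46230, AT4G34560, AT1G65295 and AT3G04184. Their level-flight means ran from 3.33 to 9.13. A second set of 16 genes was 0.61 to 0.70 higher: AT1G65346, AT1G78480, AT3G26760, AT3G50900, AT4G01390, AT1G79070, AT1G07040, AT1G25460, AT5G66440, AT5G03550, AT3G04181, AT1G10750, AT3G01430, AT1G63410, AT1G48690 and AT1G16916. The last 32 were 0.50 to 0.60 higher and held 0.26 to 0.79 after parabola 3 and 0.27 to 0.83 after parabola 10. They are AT1G44160, AT5G26731, AT1G03650, AT5G66830, AT3G62050, AT4G18460, AT3G56930, AT3G06435, AT5G25770, AT3G45210, AT3G24535, AT2G37750, AT4G40042, AT4G24265, AT1G69160, AT1G11380, AT1G18290, AT2G38820, AT3G12950, AT2G38500, AT2G24310, AT5G44010, AT5G09976, AT1G74088, AT3G17950, AT4G34600, AT5G01225, AT3G61420, AT4G16840, AT1G23890, AT4G25225 and AT5G17280.

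Members with a family symbol were set beside all measured genes of the same symbol. Of 14 measured SWEET genes, limma called 1 higher (all genes 3.47%) and 5 lower (all genes 4.85%) after parabola 1. SWEET16 (0.71) was the higher one, and SWEET11 (−1.29), SWEET13 (−1.19), SWEET3 (−0.81), SWEET14 (−0.74) and SWEET1 (−0.71) were lower. Of these only SWEET11 had a level-flight mean above 4, with a mean of 5.35 ± 0.40 after parabola 1 against 6.65 ± 0.45 in level flight (SD, n = 4 each). Of 13 measured EXPA genes EXPA4 was the only one called higher after parabola 1, and EXPA20 (−0.59) was called lower. EXPA7, an expansin gene of root hairs, was 0.31, 0.55 and 0.81 above level flight after parabolas 1, 3 and 10 and was called at the later times. EXPA18, with differences of −0.02, −0.22 and 0.02, was not called at any of them. Of 17 measured IQD genes the 2 members were called higher after parabola 1 and IQD22 (−0.62) lower. Of 14 TRM genes TRM28 was called higher and TRM25 (−0.65) lower.

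Among 5 SP1L genes SP1L2 alone was called after parabola 1, and among 6 MSRB genes MSRB3 alone. Of 32 SCPL genes 2 were called higher and 5 lower, and of 63 LCR genes, most of them dim, 1 was called each way. The all-gene shares were 3.47% higher and 4.85% lower, and the SCPL genes called lower made up more than the latter share. The other counts in these families were of 1 or 2 genes, and nothing is read from them. The 10 measured chloroplast ndh genes had values 0.25 to 0.57 above level flight after parabola 1, and ndhC, ndhF, ndhK and ndhJ were the 4 called higher (all genes 3.47%). After parabola 10 only ndhK (0.25) and ndhJ (0.24) stayed above level flight. Below it were ndhC (−0.11), ndhF (−0.23), ndhD (−0.24), ndhE (−0.24), ndhI (−0.20), ndhA (−0.22), ndhH (−0.18) and ndhG (−0.55). Of these ndhG alone was called lower (all genes 7.11%). The calls of the members in these counts describe the rule, since it used the same contrasts.

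**Figure D4:**
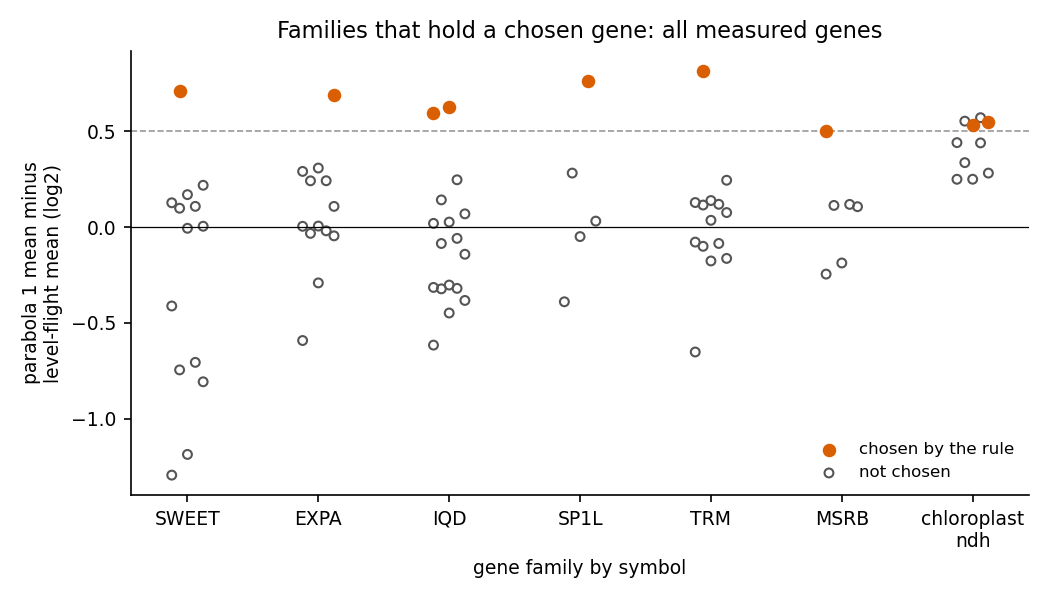
Parabola 1 mean minus level-flight mean (log2) of every measured gene in 7 families that hold at least 1 of the 127 genes, 1 point per gene, filled for genes the rule chose and open for the others. The dashed line marks the first step of 0.5, and the chosen genes of the SWEET, EXPA, IQD, SP1L, TRM and MSRB families are the only ones of their families above it, while ndhC and ndhF lie above it without having been held.

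The 127 genes were spread over all 5 nuclear chromosomes. There were 32 genes (25.2%, all genes 25.9%) on chromosome 1, 17 (13.4%, all genes 15.3%) on chromosome 2, 28 (22.0%, all genes 20.5%) on chromosome 3, 25 (19.7%, all genes 14.8%) on chromosome 4 and 23 (18.1%, all genes 23.1%) on chromosome 5. The plastid genome held 2 (1.57%, all genes 0.381%). There were 3 pairs of close neighbours, AT1G63410 with AT1G63420, AT3G04181 with AT3G04184 and AT4G34560 with AT4G34600. Of 243 nearest measured neighbours of the members, 14 (5.76%, all genes 2.71%) were at least 0.5 higher after parabola 1, and the median difference over all 243 was 0.05. The 14 included AT1G26240 (1.95) beside the extensin-like gene AT1G26250, AGL46 (1.56) beside AT2G28690, AT4G25410 (1.51) beside AT4G25400 and AT5G51780 (1.33) beside AT5G51790. Both AT4G25400 and AT5G51790 encode basic helix-loop-helix proteins. Where neighbours are near-identical copies, as may be the case for extensin-like and lipid transfer protein-like genes, probes can read both, and their values are uncertain in that respect.

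The SD of a gene around its group means had a median of 0.20 over the 127 genes, against 0.17 over all 7661 genes with a mean of at least 4 after parabola 1 and 0.23 over the 239 genes held low. Whether members deviated together from their group means was described by correlation. The median correlation over the 8001 pairs of members was 0.05 and over pairs of all 7661 genes 0.01, and 9.06% of member pairs had an r above 0.5 against 6.64%. These correlations are across 15 arrays that share their scaling, and are a description only. The median over the 127 genes, relative to their level-flight means, was −0.04 to 0.04 in the level-flight arrays, 0.61 to 0.69 in the parabola 1 arrays, 0.55 to 0.64 in the parabola 3 arrays and 0.61 to 0.72 in the parabola 10 arrays. All 11 arrays after a parabola thus lay far above the 4 level-flight arrays in this median, which the rule fixes in direction.

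**Figure D5:**
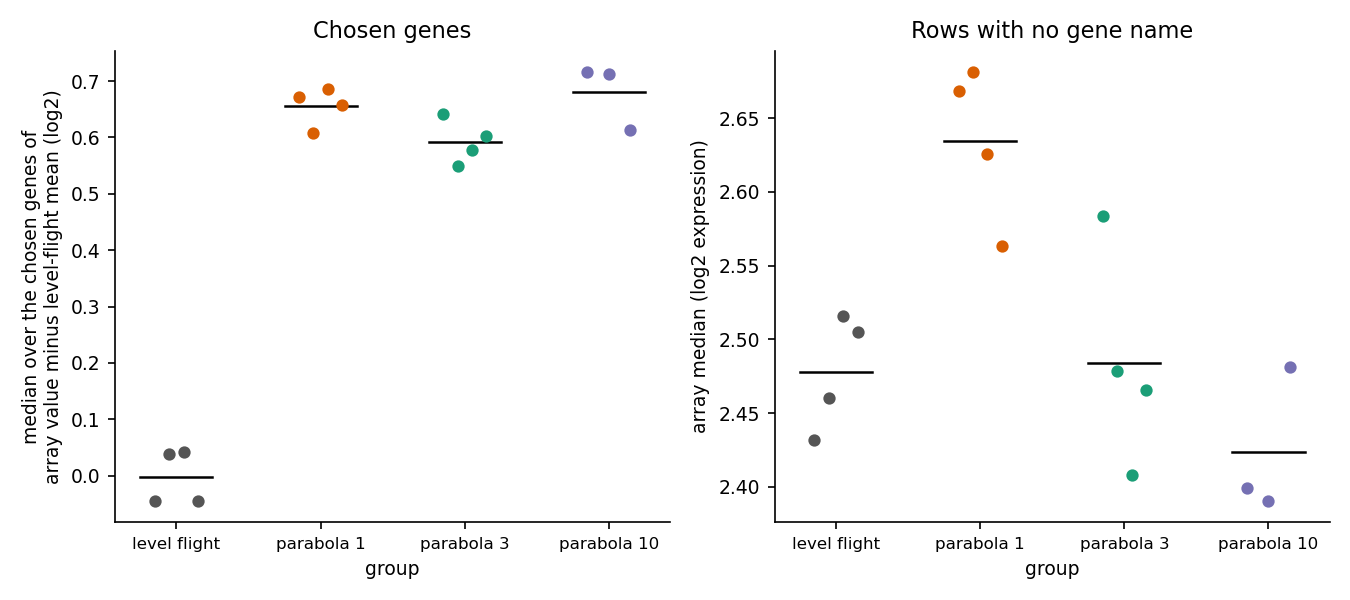
Left, the median over the 127 genes of the array value minus the gene's level-flight mean (log2), 1 point per array with a line at the group mean. Right, the array median (log2 expression) of 7083 of the 20927 rows with no gene name, where parabola 1 arrays lie at 2.56 to 2.68 and level-flight arrays at 2.43 to 2.52.

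A measure the rule did not use was higher in the parabola 1 arrays, but the difference did not pass after adjustment. It is the array median of 7083 of the 20927 rows with no gene name, those numbered below the first row with a gene. The other unnamed rows were not used for it. The median was 2.48 ± 0.04 for level flight, then 2.63 ± 0.05 for parabola 1, 2.48 ± 0.07 for parabola 3 and 2.42 ± 0.05 for parabola 10 (SD, n = 4, 4, 4 and 3). The difference between parabola 1 and level flight was 0.156 (exact permutation test, two-sided p = 0.0286, the smallest that 4 against 4 arrays can give; adjusted p = 0.0857 over 3 comparisons, which does not pass), and all 4 parabola 1 arrays were above all 4 level-flight arrays. After parabolas 3 and 10 the exact permutation p was 0.914 and 0.171. The pools of a group came from the same tube, so this test cannot tell parabola from tube. With this median as a covariate, the median step of the 127 genes was 0.67 and 126 of them stayed above level flight. The rule chose the genes for this step in the same arrays, so nothing is read from these values. Level-flight and parabola 1 arrays did not overlap in the covariate, so the fit separates it poorly from parabola 1. In that fit 161 genes met the rule, of which 47 were among the 127. Its part in the choice of the other 80 genes was not tested.

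Membership changed with single arrays. Leaving out each of the 15 arrays in turn, or scaling the arrays in 3 other ways, left 32 of the 127 genes inside all limits every time. These 32 include AT3G62460, AT2G28690, LSH9, AT5G16120, PSAN, LCR69, EXPA4, IDL4, SHL1, iqd15, IQD20 and PID2. Others met the limits less often: ndhJ in 7 and ndhK in 8 of the 15 omissions, and AT1G49200 in 10. The median step of the 127 genes was 0.62 to 0.66 in every omission. The rule chose the genes for this step in the same arrays, so nothing is read from that range.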

How the data were processed

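Root RNA of 15 samples was measured on AraGene 1.0 ST arrays, 1 array per pool of roots. The deposited table gives log2 values, 1 per probe set and array. Named in the submitters' processing notes are TAIR10, R 4.0.0, limma, oligo and RMA, with no role attached to any of them. RMA is a method that subtracts background, brings arrays to a common distribution and combines the probes of a set. Filtering by the authors is not stated in the sources used here.

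That table has 38408 rows and 0 columns of other samples. The platform annotation gave 1 gene to 16722 rows, several genes to 759 and none to 20927. For 146 genes with more than 1 row the row with the highest mean was kept, which left 16550 genes. Gene names were taken from this annotation and a RefSeq table of TAIR10.1, in which 122 of the 127 chosen genes were found by gene number and 5 by symbol or locus. As that assembly is not the TAIR10 of the notes, no coordinates are given, and no sequence is shown.

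The rule was applied to group means over the 15 arrays. Group means of all genes were fitted with lmFit and eBayes of limma 3.58.1 under R 4.3.3 (two-sided, adjusted by Benjamini-Hochberg within each contrast, threshold 0.05), and the steps were tested on simulated data. Other values were computed in Python 3.11.15 with numpy 2.4.6, pandas 2.3.3 and scipy 1.17.1. Precision is limited by the 3 or 4 arrays per group. The deposited table gives no signal over background, so whether dim genes were detected was not assessed.

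The chosen genes, the gene lists and the rule for named genes were set with earlier results of these data known, and the roles of the chosen genes were assigned after the genes were known. Named are the 20 largest steps, up to 4 genes per class of role, every gene with a symbol, close neighbours and the genes nearest each limit, and values in every array are given for the 10 largest steps and up to 2 genes per class. The remaining genes were listed so that all 127 are accounted for. Roles of genes known only by locus are families from general knowledge. An earlier sorting by product description covered 4 of the 127 genes and was replaced. Of the markers listed, EXPA7 and EXPA18 of root hairs (2 of 8) and 2 of 13 shoot genes were measured. For the endodermis, xylem, phloem, meristem and root cap 0 of the listed markers were among the genes used, so the labelled tissue could be checked only in part. EXPA18 averaged 6.53 ± 0.27 in level flight (SD, n = 4).

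Alternatives were 3 other scalings, another choice of row, other limits of the rule, group medians, the replicate number as a block, omission of the 25% dimmest genes, eBayes with trend and robust options, and omission of each array. A covariate made of the median of 7083 unnamed rows was chosen after seeing the data.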

Additional observations from a re-analysis of the deposited data

Results flagged for a closer look

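Groups of 4 arrays were searched for a single array far from the other 3, in the 61 genes and values named by the rule. Of 183 such groups 11 (6.01%) held one, where chance gives about 1 in 20. In level flight, replicate 3 stood apart in AT2G40640, at 3.73 with the others at 4.28 to 4.39, and in ndhK, at 8.37 with the others at 7.87 to 7.95. After parabola 1, replicate 4 of AT5G16120 read 8.25 (others 7.87 to 7.93), replicate 2 of AT4G34560 read 7.12 (others 7.36 to 7.41), replicate 3 of AT5G36160 read 8.59 (others 8.40 to 8.44) and replicate 3 of SMZ read 6.09 (others 5.67 to 5.73). After parabola 3, replicate 2 of AT5G02580 read 6.21 (others 6.45 to 6.49), and replicate 1 read 4.02 in AT3G10080 (others 3.77 to 3.80) and 8.08 in AT4G27870 (others 8.25 to 8.27). Replicate 3 of that group read 5.72 in SCPL45 (others 6.29 to 6.38) and 5.28 in AT3G04181 (others 4.88 to 4.89).

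Rows without a gene name lie outside the measured genes. The array median of the 7083 used here, out of 20927, was 0.156 higher after parabola 1 than in level flight on the log2 scale. That difference did not pass after adjustment.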

How the results depend on the processing

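The count of genes that met the rule was 127. It stayed within 1.5 times of that under each of the 3 other scalings (105 to 154), another choice of row (128), group medians (129), a hold limit of 0.4 (188), a lowest mean of 3 (156) or 5 (93) and the unnamed-row covariate (161), and between 120 and 158 when each array was left out in turn. No member had a further row, so another choice of row could only add genes. Which genes met the rule moved more. Group medians shared 88 of the 127 genes, and so did the means without parabola 1 replicate 2, while the covariate, chosen after seeing the data, shared 47. The limits set the size of the set most, with 253 genes at a first step of 0.4, 73 at 0.6 and 63 at a hold limit of 0.2. These 3 differ by construction. The median step of the 127 genes was 0.60 to 0.65 under the scalings and 0.62 to 0.66 without single arrays. These ranges are a description, since the genes were chosen for this step in the same arrays. Of the 59 named genes, 25 had a step that moved by more than the spread between arrays with the covariate, and 0 under the other settings run.

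Genes called against level flight numbered 1378 after parabola 1, 1850 after parabola 3 and 2423 after parabola 10. Without single arrays they were 1023 to 1417, 1369 to 1922 and 1723 to 2472. The covariate left 482 after parabola 1, and the cause was not tested. Genes called higher numbered 575, 742 and 1247 at the 3 times, and 375, 486 and 770 with the reference genes subtracted. With the covariate 180 were called higher and 302 lower after parabola 1, against 803 lower without it. With the reference genes subtracted, 68.3% of calls after parabola 1 were lower (58.3% without), 68.8% after parabola 3 (59.9%) and 62.7% after parabola 10 (48.5%).

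With the replicate number as a block, 126 genes met the rule, 121 of them among the 127, and the median step of the 127 genes was 0.63. The block cannot change that step, since level flight and parabola 1 hold the same replicate numbers, so nothing is read from its value. The block fit called 1375, 1820 and 2266 genes after parabolas 1, 3 and 10. Deviations from the group means of all genes correlated at −0.08 to 0.11 between arrays of the same number (21 pairs, 1 of them over 0.1), so the arrays share only a number and the block is not a pairing.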

Other observations

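The rule was also applied to the 21686 rows that name no gene or several genes, and 201 of them met it. These rows are not identified further here.

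All 127 genes are protein coding in the reference table, and no member had a further row on the array. The mean in level flight was under 4 in 23 of them, and the mean after parabola 1 was at least 8 in 20. In the 127 genes the difference between parabola 10 and parabola 3, which the rule did not limit directly, ran from −0.39 to 0.44. It was above 0 in 82 and below 0 in 45 genes. The median of this difference was 0.08, against 0.03 over the 7661 genes with a mean of at least 4 after parabola 1. The rule tied both means to that of parabola 1, so nothing is read from this split.

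Of the 3 neighbouring pairs of chosen genes, deviations from group means correlated at 0.55 in AT1G63410 and AT1G63420, at 0.39 in AT4G34560 and AT4G34600 and at −0.03 in AT3G04181 and AT3G04184, over the same 15 arrays. Across all 127 genes AT1G63410 (0.82) and LSH9 (0.81) followed the median deviation of the 127 genes most closely, and this is a description, since each gene is part of that median.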
